A study of Mus musculus with 2 samples.

Results

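The levels of 10 genes of the basement membrane and of collagen folding were followed in 2 single-cell RNA libraries of mouse iPSCs, pluripotent cells made by reprogramming somatic cells. The genes are Sparc, Serpinh1, Lama1, Lamb1, Lamc1, Col4a1, Col4a2, Nid1, P4ha2 and Plod2, 10 of the 27998 genes in the files, and all 10 were found by symbol. One library came from cells in which both Srf alleles were deleted (knockout) and the other from cells with the unrecombined floxed Srf alleles (wild type). Srf encodes serum response factor, a transcription factor of actin and immediate early genes. Both kinds of cell were grown in medium with serum, and the labels do not say how many lines or clones they came from. Each genotype is 1 droplet library, so genotype, clone, culture and library preparation cannot be told apart, genotypes were not tested against each other and p-values are not given. All intervals are 95% intervals of counting error only.

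The basement membrane is a thin sheet of matrix under epithelia. Laminin, a trimer of an alpha, a beta and a gamma chain, polymerises on the cell surface, a network of type IV collagen forms beside it, and nidogen links them. Collagen chains are hydroxylated and folded in the endoplasmic reticulum before export, which needs prolyl and lysyl hydroxylases and the collagen chaperone HSP47, the product of Serpinh1. In the early mouse embryo the primitive endoderm, an extraembryonic lineage that arises beside the pluripotent epiblast, is a strong producer of this matrix, and its parietal derivative lays down Reichert's membrane.

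Cells were sorted into classes by counts of unique molecular identifiers (UMIs, 1 per captured transcript). Kept cells had at least 1000 genes, 1 to 10% mitochondrial counts and under 5 UMIs summed over Col1a2, Col3a1 and Acta2, genes of fibroblasts such as feeder cells. Cells with at most 1 UMI over 8 genes of the primitive endoderm (Gata6, Gata4, Sox17, Pdgfra, Dab2, Cubn, Lrp2, Amn) are called low-endoderm, those with at least 10 high-endoderm. The knockout library had 731 kept cells, of which 580 were low-endoderm, 57 lay between the limits and 94 were high-endoderm. In the wild-type library 873 of 893 kept cells were low-endoderm, 17 lay between and 3 were high-endoderm. The members were chosen with their ratio between the libraries and their levels in these classes known, so what follows describes those values and tests none of them.

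Median totals per low-endoderm cell were 24556 UMIs (knockout) and 26656 UMIs (wild type), and 22945.5 UMIs per knockout high-endoderm cell. In low-endoderm cells Srf had 3 UMIs among 14506760 in the knockout and 196 among 22705066 in the wild-type library. All 17 pluripotency markers were measured in these cells, with Pou5f1 at 752.8 (knockout) and 810.4 (wild type) CPM, the UMIs of a gene per 1000000 UMIs of the class. Of the 17, 1 was lower and 0 higher by over 1.5-fold in the knockout library, beside 2.84% and 4.57% of all genes. Their summed level was 11328 CPM (knockout) and 14476 CPM (wild type). Between the knockout classes 12 of the 17 were lower by over 1.5-fold in high-endoderm cells, beside 11.3% of all genes, with Nanog at 4.87 against 73.3 CPM. Tbx3 (110.3 against 51.4 CPM) and Klf5 (232.2 against 143.7 CPM) were higher, and 3 were within that fold. Of the endoderm markers outside the rule, Foxa2 (94 UMIs) and Ttr (187 UMIs) were present in the knockout high-endoderm cells and had 0 UMIs in the knockout low-endoderm cells. Not all such markers were absent from low-endoderm cells. The summed primitive endoderm markers outside the rule were at 1279 CPM in high- and 14.8 CPM in low-endoderm knockout cells. The summed visceral endoderm markers were at 1204 and 557.3 CPM. The 2 measured parietal endoderm markers, those with a mean of at least 10 CPM, were Pth1r and Sox7. Pth1r was at 83.3 CPM in high- against 1.24 CPM in low-endoderm cells, and Sox7 at 34.1 against 0.414 CPM. They reached that minimum only through the high-endoderm cells, so they had to be higher. The other parietal markers had 29 (Plat), 24 (Snai1), 11 (Fst), 3 (Thbd) and 1 (Stra6) UMIs there. All 4 measured visceral endoderm markers were also higher by over 1.5-fold, beside 26.9% of all genes. Among them Foxa2 and Ttr reached the minimum only through the high-endoderm cells, so nothing is read from these counts. Afp, another visceral marker, was at 0 in both classes. Only 2 cell barcodes occurred in both libraries.

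The stretches upstream of Serpinh1, Lamb1 and Nid1 are shown because Serpinh1 and Lamb1 differed by over 30-fold between high- and low-endoderm knockout cells and Nid1 differed least of the members. They are the parts of the RefSeq promoter windows (GRCm38.p6) that lie before the start site and overlap no GENCODE M21 exon, 5′ to 3′ on the gene's strand, with CG dinucleotides in capitals. Serpinh1 is on the minus strand of chr7:99353240-99353489, Lamb1 on the plus strand of chr12:31265043-31265233 and Nid1 on the plus strand of chr13:13437352-13437550.
Serpinh1: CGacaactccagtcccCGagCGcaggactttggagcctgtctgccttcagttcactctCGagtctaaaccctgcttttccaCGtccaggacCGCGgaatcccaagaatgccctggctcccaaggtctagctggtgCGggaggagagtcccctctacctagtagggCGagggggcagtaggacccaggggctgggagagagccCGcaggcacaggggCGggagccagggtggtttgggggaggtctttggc
Lamb1: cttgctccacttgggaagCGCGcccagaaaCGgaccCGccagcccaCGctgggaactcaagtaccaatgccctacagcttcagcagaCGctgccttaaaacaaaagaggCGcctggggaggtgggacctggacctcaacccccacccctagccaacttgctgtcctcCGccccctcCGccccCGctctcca
Nid1: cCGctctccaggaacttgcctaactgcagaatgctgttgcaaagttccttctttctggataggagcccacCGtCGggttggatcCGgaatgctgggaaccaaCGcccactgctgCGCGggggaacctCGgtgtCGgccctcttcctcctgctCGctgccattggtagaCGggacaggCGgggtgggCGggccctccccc
These stretches of 250, 191 and 199 bases hold 11, 10 and 13 CG dinucleotides, Nid1 having most, and their GC content is 63.6%, 63.9% and 63.8%. Windows of 300 bases were found for 7 of the 10 members. Lama1, Lamc1 and Plod2 had none. Between the knockout classes Lama1, Col4a1 and Col4a2 differed more than Serpinh1 and Lamb1. The Col4a1 and Col4a2 windows had 0 bases before the start site that lie outside exons. Motifs were searched on both strands. The CArG box, bound by SRF, was in 0 of the 7 windows and in 1.63% of all 32851 windows. GATAA, a core bound by GATA factors, was in 0 of 7 and in 25.4% of all. The heat shock element, bound by heat shock factors, was in 0 of 7 (0.603% of all), and the endoplasmic reticulum stress element was in 0 of 7 (0.119% of all). No match says only that these letters are not in these windows.

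Over all kept cells, every member was higher in the knockout library. Log2 ratios between the libraries ran from 0.35 (Nid1) to 4.90 (Col4a1), with a median of 2.21 against 0.09 over the 6554 genes whose mean level reached 10 CPM. Of the 10 members 9 were higher by over 1.5-fold and 0 lower, beside 7.05% and 2.58% of all genes. In low-endoderm cells the median of the members was 0.14 against 0.06 over 6440 genes. There 3 of 10 members, Lama1, Col4a1 and Col4a2, were higher by over 1.5-fold, and 0 were lower, beside 4.57% and 2.84% of all genes. Those 3 were under the minimum of 10 mean CPM, as was P4ha2, and 0 of the 6 members above the minimum passed 1.5-fold. Because the members were chosen on this contrast, nothing is read from these shares.

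**Figure D1:**
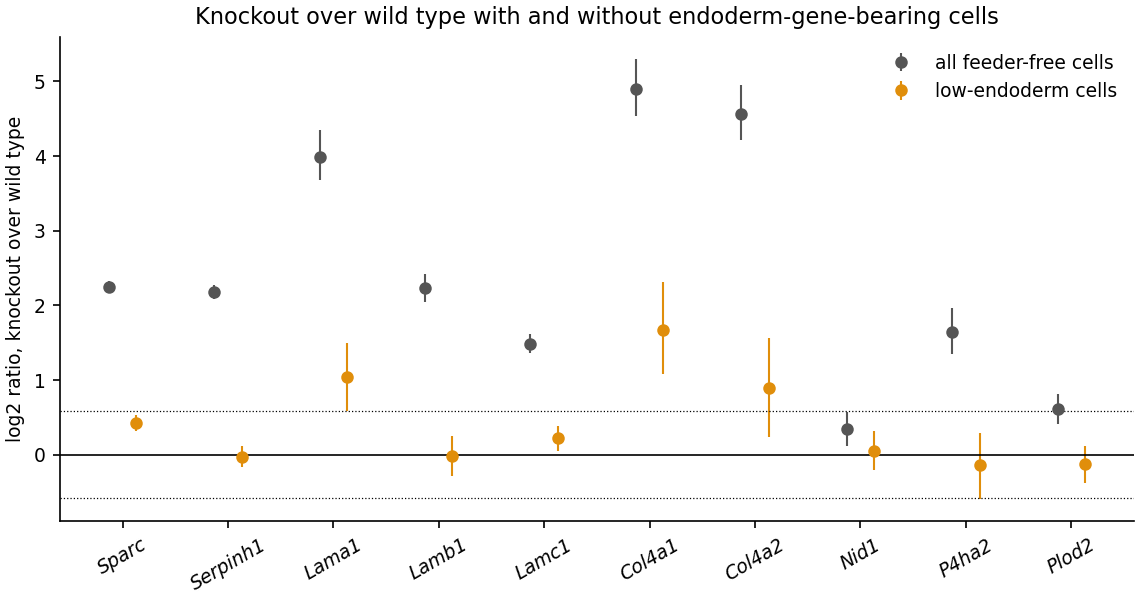
Log2 ratio of knockout over wild-type levels (y axis) for each member, over all feeder-free cells (grey) and over low-endoderm cells (orange), with 95% counting intervals; dotted lines mark 1.5-fold. Serpinh1 goes from 2.18 to -0.02 and Col4a1 from 4.90 to 1.68 when only low-endoderm cells are compared.

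The UMIs of most members came from few knockout cells. The 94 high-endoderm cells held 12.4% of all UMIs of the kept knockout cells. They held 95.1% of the Col4a2, 93.2% of the Col4a1, 89.4% of the Lama1, 80.5% of the Serpinh1 and 80.1% of the Lamb1 UMIs. Lamc1 (63.1%), P4ha2 (71.0%) and Sparc (75.6%) followed. Nid1, with 25.2% of its UMIs in these cells and 65.3% in low-endoderm cells, and Plod2, with 46.2% and 47.1%, had more in low- than in high-endoderm cells. In the wild-type library the 3 high-endoderm cells held 40.0% of 60 Col4a1 UMIs and 38.5% of 65 Col4a2 UMIs. For the other members that share was between 0.314% (Nid1) and 7.32% (Lama1).

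**Figure D2:**
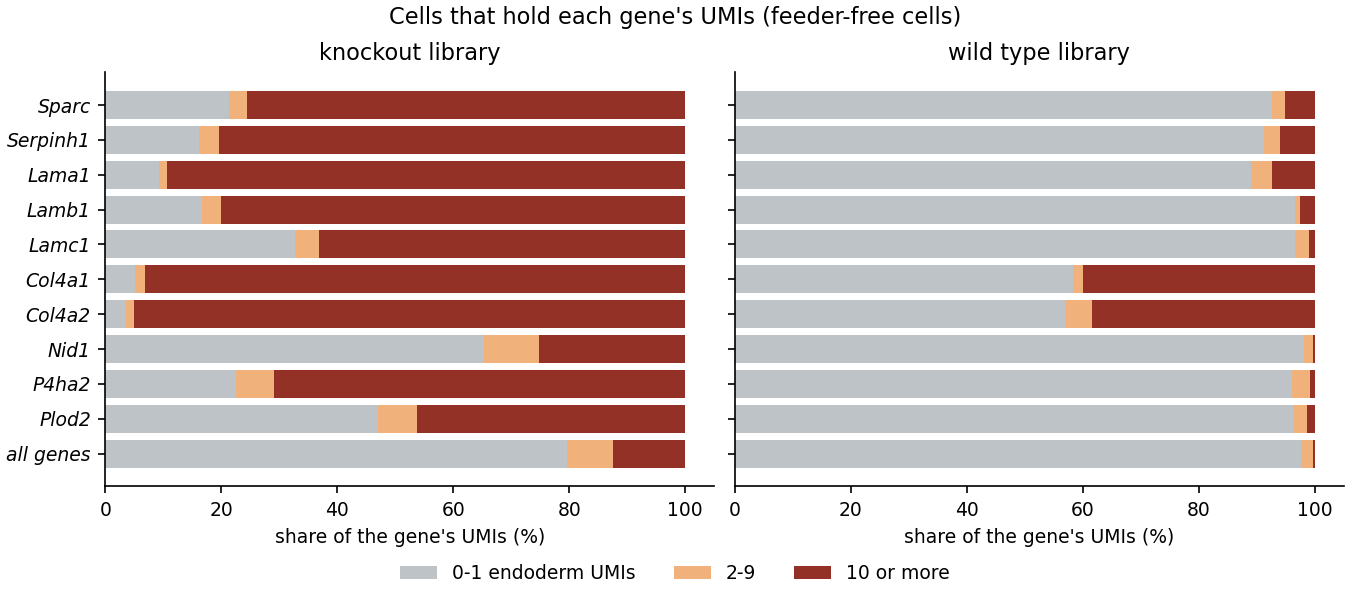
Share of each member's UMIs (x axis, %) in feeder-free cells with 0 to 1, 2 to 9, and 10 or more endoderm UMIs, for the knockout (left) and wild-type (right) library, with all genes in the lowest bar. In the knockout library the high-endoderm part is 12.4% for all genes, 95.1% for Col4a2 and 25.2% for Nid1.

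Type IV collagen differed most between the classes. Col4a1 and Col4a2 encode the chains that assemble into its common network. In GENCODE M21 (GRCm38) they lie head to head on chromosome 8, Col4a1 from 11198423 to 11312826 on the minus strand and Col4a2 from 11312805 to 11449287 on the plus strand. Their first exons share 22 bases on opposite strands. Whether the counting used strand is not given in the sources used here. Col4a1 had 72 UMIs (4.96 CPM, interval 3.88 to 6.25) in knockout low-endoderm cells and 35 UMIs (1.54 CPM, interval 1.07 to 2.14) in wild-type low-endoderm cells. The knockout high-endoderm cells held 1312 Col4a1 UMIs (581.3 CPM, interval 550.3 to 613.6). The log2 ratio of high- over low-endoderm knockout cells was 6.86 (interval 6.53 to 7.23). Col4a2 had 44 UMIs (3.03 CPM), 37 UMIs (1.63 CPM) and 1151 UMIs (510.0 CPM) in the same 3 classes, a log2 ratio of 7.38 (interval 6.96 to 7.86) between the knockout classes. In knockout cells with 3 to 9 endoderm UMIs Col4a1 was at 26.8 CPM and Col4a2 at 20.5 CPM, and in the 11 knockout cells rich in fibroblast genes they were at 213.3 and 290.4 CPM.

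Between libraries, low-endoderm cells gave a log2 ratio of 1.68 (interval 1.09 to 2.31) for Col4a1 and 0.89 (interval 0.23 to 1.57) for Col4a2. Srgn, which encodes a proteoglycan core protein, was not in the rule and, chosen here after its values were seen, served as a mark of endoderm RNA. It had 1969 UMIs in high-endoderm and 48 UMIs in low-endoderm knockout cells, but 2 UMIs in wild-type low-endoderm cells. At the ratio of the high-endoderm cells, 48 Srgn UMIs would come with 32.0 Col4a1 UMIs, 44.4% of those counted, and with 28.1 Col4a2 UMIs, 63.8%. The knockout excess over the wild-type rate was 49.6 UMIs for Col4a1 and 20.4 for Col4a2. The measure planned for this, the summed endoderm markers outside the rule, gave 135.8% of the counted Col4a1 UMIs, 194.9% of the Col4a2 and 71.3% of the Lama1 UMIs in the knockout, and 391.0% of the Col4a1 UMIs in the wild-type library. Srgn is one of these markers and gave 1969 of their 2886 UMIs in knockout high-endoderm cells, so the measures are not independent. The summed markers had 215 UMIs in knockout and 301 UMIs in wild-type low-endoderm cells, so they do not mark the high-endoderm cells alone. Over low-endoderm cells with 0 Srgn UMIs the log2 ratios were 1.47 and 0.81. The part of free or residual endoderm RNA in these ratios was not tested beyond these values.

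Chromosome 8 was itself unequal between cells. A share above 1.2 times the median wild-type cell was found in 278 of 580 knockout (47.9%) and 86 of 873 wild-type (9.85%) low-endoderm cells, and in 61 of 94 knockout high-endoderm cells (64.9%). The median share in the raised knockout low-endoderm cells was 1.40 times that median. In knockout low-endoderm cells the log2 ratio of raised over usual cells was 0.04 (interval -0.67 to 0.75) for Col4a1 and -0.09 (interval -1.02 to 0.83) for Col4a2, intervals too wide to tell a level that follows the share from one that does not. In high-endoderm cells it was -0.25 (interval -0.41 to -0.09) and -0.34 (interval -0.51 to -0.17), so both were lower in CPM in raised cells. So were members on other chromosomes, namely Sparc (-0.51), Lama1 (-0.47), Lamb1 (-0.47), Lamc1 (-0.65) and P4ha2 (-0.84), with intervals below 0. The intervals of Serpinh1, Nid1 and Plod2 held 0. In cells with the usual share, knockout over wild type was 1.64 for Col4a1 and 0.92 for Col4a2 in low-endoderm cells.

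The laminin genes did not behave alike. Lama1, Lamb1 and Lamc1 encode the chains of laminin-111, a laminin of the early embryo. Lama1 (chromosome 17, 67697259 to 67822647, plus strand) had 96 UMIs (6.62 CPM) in knockout and 73 UMIs (3.22 CPM) in wild-type low-endoderm cells, a log2 ratio of 1.04 (interval 0.59 to 1.5). In knockout high-endoderm cells it had 919 UMIs (407.2 CPM), a log2 ratio over low-endoderm cells of 5.94 (interval 5.64 to 6.26). At the Srgn ratio 23.3% of its knockout low-endoderm UMIs would come with Srgn, and with 0 Srgn UMIs in the cells its ratio between libraries was 1.01.

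Lamb1 (chromosome 12, 31265234 to 31329644, plus strand) stood at 13.3 CPM in low-endoderm cells of the knockout and 13.4 CPM in those of the wild type, a log2 ratio of -0.01 (interval -0.28 to 0.25). Its level was 412.5 CPM in knockout high-endoderm cells, a log2 ratio of 4.95 over low-endoderm cells (interval 4.73 to 5.19). Lamc1 (chromosome 1, 153218922 to 153332786, minus strand) was at 34.1 and 29.2 CPM in these cells, a log2 ratio of 0.22 (interval 0.05 to 0.39). It reached 421.4 CPM in the knockout high-endoderm cells, a log2 ratio of 3.63 (interval 3.47 to 3.79). Between the knockout classes the alpha chain gene thus differed by 61.2-fold, the beta chain gene by 30.9-fold and the gamma chain gene by 12.4-fold, and these intervals do not overlap.

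Nid1 encodes nidogen-1, the linker between laminin and type IV collagen, and differed least (chromosome 13, 13437551 to 13512269, plus strand). Its level in low-endoderm cells was 14.3 CPM (knockout) and 13.7 CPM (wild type), a log2 ratio of 0.06 (interval -0.21 to 0.31). In knockout high-endoderm cells it was 35.4 CPM, a log2 ratio of 1.32 over low-endoderm cells (interval 0.92 to 1.69). The ratio between libraries moved with the chromosome 8 class, although Nid1 is on another chromosome. It was 0.51 (interval 0.21 to 0.80) in usual and -0.44 (interval -1.11 to 0.29) in raised low-endoderm cells, as knockout cells held 19.8 CPM when usual and 8.53 CPM when raised. Lamc1 and Sparc were also lower in raised than in usual knockout low-endoderm cells, with log2 ratios of -0.59 (interval -0.86 to -0.32) and -0.46 (interval -0.62 to -0.31). The part of chromosome 8 dosage in these differences was not tested.

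Sparc encodes a collagen-binding matrix glycoprotein (chromosome 11, 55394500 to 55423183, minus strand). Knockout low-endoderm cells held 1449 UMIs (99.9 CPM, interval 94.8 to 105.2) and wild-type ones 1688 UMIs (74.3 CPM, interval 70.8 to 78.0). That log2 ratio was 0.43 (interval 0.32 to 0.53), and in cells with the usual chromosome 8 share 0.61. In knockout high-endoderm cells Sparc had 5117 UMIs (2267 CPM), a log2 ratio of 4.50 over low-endoderm cells (interval 4.42 to 4.59). Sparc is also a gene of fibroblasts. The 11 knockout cells with at least 50 UMIs of the fibroblast genes held it at 1917 CPM. In their ratio the 48 fibroblast-gene UMIs of the knockout low-endoderm cells would come with 18.1 Sparc UMIs, 1.25% of those counted. The class rule caps these same fibroblast genes, so that share was limited in advance. With no such limit the log2 ratio between libraries was 0.72. The part of fibroblast RNA in the Sparc levels was not tested. Of 16 fibroblast markers 3 were measured in the knockout classes, and Vim (230 against 726 UMIs, a log2 ratio of 1.03 in CPM) and Timp1 (83.7 against 45.8 CPM, 0.87) were higher and Lgals1 (128.9 against 194.3 CPM, -0.59) lower in high-endoderm cells. Of the others, Col1a1, Col5a2, Col6a1, Postn, Lum and Meg3 had 0 UMIs in those cells, Col5a1 had 11, Fbn1 and Bgn had 5, Thy1 had 3, Col6a2 had 2, and Dcn and Tagln had 1. The summed level of the list was 327.0 CPM in the knockout high-endoderm cells, and in low-endoderm cells 317.5 CPM (knockout) and 345.2 CPM (wild type).

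Serpinh1 (chromosome 7, 99345376 to 99353239, minus strand) had a log2 ratio between libraries near 0 when only low-endoderm cells were compared. So did Lamb1 (-0.01), Nid1 (0.06), P4ha2 (-0.14) and Plod2 (-0.13). The Serpinh1 ratio was 2.18 (interval 2.09 to 2.28) over all kept cells and -0.02 (interval -0.17 to 0.12) over low-endoderm cells. Low-endoderm cells of the knockout held 668 UMIs (46.0 CPM, interval 42.6 to 49.7) and those of the wild type 1064 UMIs (46.9 CPM, interval 44.1 to 49.8). In knockout high-endoderm cells it had 3340 UMIs (1480 CPM), 32.1-fold the low-endoderm level. After thinning each cell to 10000 UMIs, a Serpinh1 UMI was found in 36.5% of knockout (interval 32.4 to 40.8) and 29.3% of wild-type (interval 26.2 to 32.6) low-endoderm cells, intervals that overlap. The difference of 7.22 percentage points was 1.87 when cells were thinned to 5000 UMIs and 2.37 without thinning. The 10% of cells that had most held 57.6% of the thinned UMIs in the wild-type and 47.3% in the knockout library, and no order is read from the shares.

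P4ha2 and Plod2 encode a catalytic subunit of prolyl 4-hydroxylase and a lysyl hydroxylase. P4ha2 (chromosome 11, 54100095 to 54131665, plus strand) was at 4.83 (knockout) and 5.33 CPM (wild type) in low-endoderm cells, a log2 ratio of -0.14 (interval -0.59 to 0.29). It stood at 97.5 CPM in knockout high-endoderm cells, a log2 ratio of 4.33 (interval 3.94 to 4.75). Plod2 (chromosome 9, 92542223 to 92608428, plus strand) was at 15.0 and 16.4 CPM in low-endoderm cells, a log2 ratio of -0.13 (interval -0.38 to 0.11), and at 94.4 CPM in knockout high-endoderm cells. Its log2 ratio between the knockout classes, 2.66 (interval 2.38 to 2.94), was the second lowest of the members after Nid1.

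**Figure D3:**
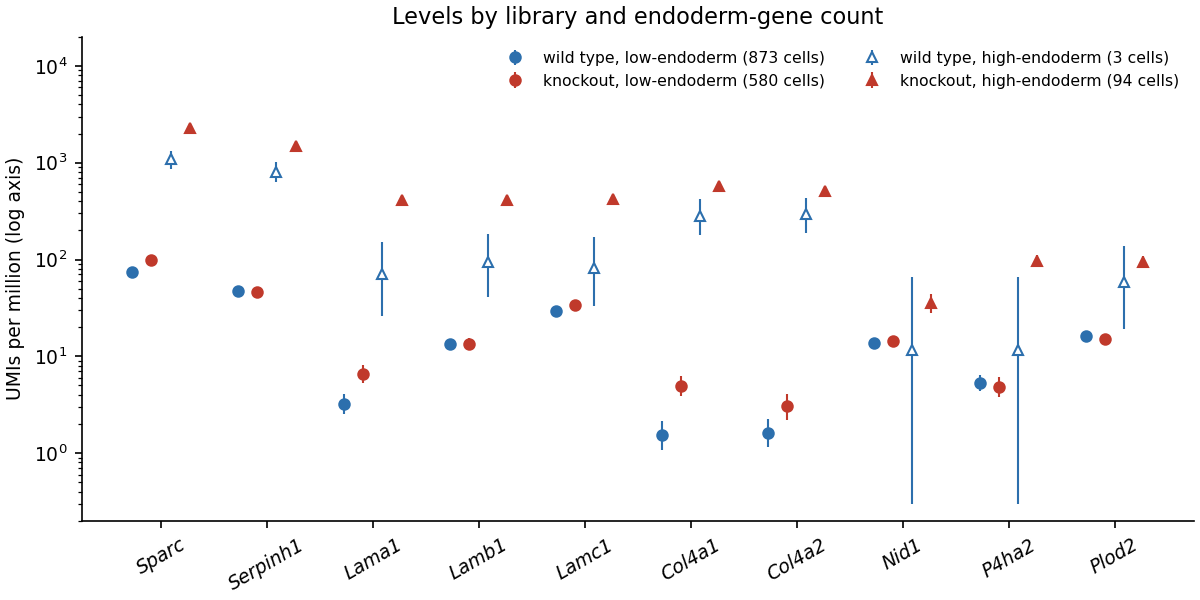
Level of each member in CPM (log axis) in low-endoderm (circles) and high-endoderm (triangles) cells of the wild-type (blue) and knockout (red) libraries, with exact Poisson intervals. Knockout high-endoderm cells lie above both low-endoderm classes for every member, from 35.4 for Nid1 to 2267 for Sparc; the open triangles rest on 3 cells.

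All 10 members were higher by over 1.5-fold in high- than in low-endoderm knockout cells, with a median log2 ratio of 4.73 against 0.11 over 6967 genes. Of all these genes 26.9% were higher by that fold and 11.3% lower. Lama1, Col4a1, Col4a2 and P4ha2 reached the 10 CPM minimum only through the high-endoderm cells, and the classes were set by genes of the same lineage, so nothing is read from the count.

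The 3 wild-type high-endoderm cells were not alike. One, with 126 UMIs of the 8 endoderm genes, carried 90 Sparc, 69 Serpinh1, 24 Col4a1 and 25 Col4a2 UMIs among 46778. The others, with 15 and 10 endoderm UMIs, carried 0 and 2 Sparc UMIs and 0 UMIs of Serpinh1, Col4a1 and Col4a2. The cell with 126 endoderm UMIs thus held all UMIs of Serpinh1, Lama1, Lamb1, Col4a1, Col4a2 and Nid1 in this class. It held 90 of 92 Sparc UMIs, 4 of 7 Lamc1 UMIs, 4 of 5 Plod2 UMIs and 0 of 1 P4ha2 UMI, and no ratio between libraries is drawn for this class.

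In knockout cells the members were followed along the count of the 8 endoderm genes. Serpinh1 stood at 47.0 CPM in 439 cells with 0 endoderm UMIs, 43.5 CPM in 141 cells with 1 and 55.9 CPM in 30 cells with 2, just outside the limit. It was 152.8 CPM in 27 cells with 3 to 9, 759.0 CPM in 22 cells with 10 to 19, 1236 CPM in 23 cells with 20 to 49, and 1947 and 1801 CPM in 27 and 22 cells with 50 to 99 and with 100 or more. Up to 2 endoderm UMIs the intervals overlapped. Col4a1 went from 3.51 CPM at 0 to 8.85 CPM at 1 endoderm UMI, and reached 891.3 CPM in the last step. Lama1 stayed between 6.07 and 9.94 CPM up to 9 endoderm UMIs and was 93.6 CPM at 10 to 19. Nid1 ranged from 11.2 to 46.5 CPM over all steps.

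**Figure D4:**
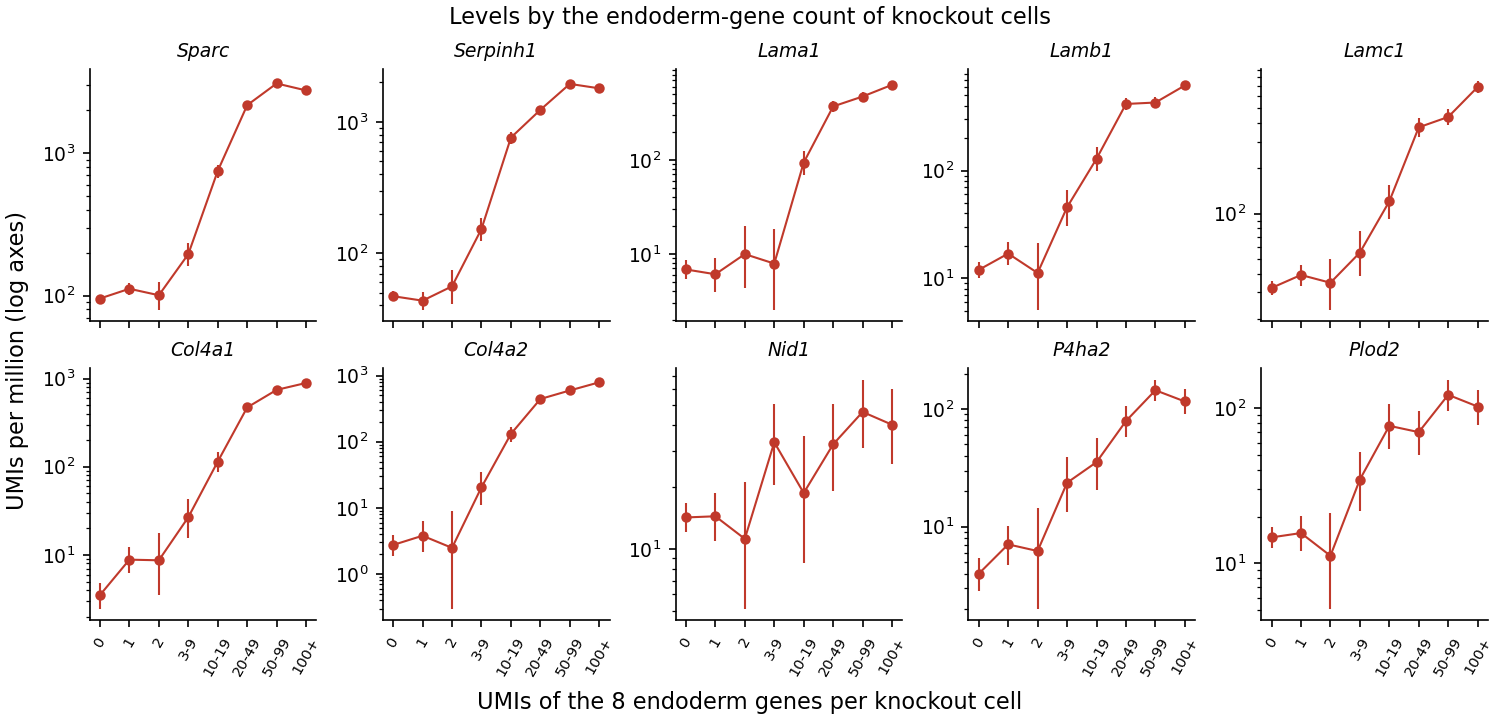
Level of each member (CPM, log axes of differing range) in knockout cells grouped by their UMIs of the 8 endoderm genes (x axis), with exact Poisson intervals. Serpinh1 goes from 47.0 at 0 to 1801 at 100 or more, and Nid1 stays between 11.2 and 46.5.

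Shares of cells were compared on cells thinned to 10000 UMIs, which left out 60 knockout and 75 wild-type low-endoderm cells and 3 knockout high-endoderm cells. A Sparc UMI was found in 56.3% of knockout (interval 52.0 to 60.7) and 46.4% of wild-type (interval 42.9 to 49.9) low-endoderm cells, and in 95.6% of the knockout high-endoderm cells. Without thinning, 464 of 580 and 634 of 873 low-endoderm cells had one. Col4a1 was found in 4.42% (interval 2.82 to 6.56) and 1.38% (interval 0.690 to 2.45) of low-endoderm cells and in 87.9% of high-endoderm cells. Lama1 was found in 6.15% (interval 4.25 to 8.58), 2.63% (interval 1.64 to 3.99) and 80.2%. For Serpinh1, Col4a2, Lamb1, Lamc1, Nid1, P4ha2 and Plod2 the intervals of the 2 low-endoderm classes overlapped. A background for such shares would be a cell type without the gene, and none was established for any member. Of the 10 thinned knockout cells rich in fibroblast genes, 0 had a Lama1 UMI, which with so few cells allows a share of up to 30.8%. Before thinning 1 of 11 such cells had one, a level of 2.27 CPM beside 3.22 CPM in wild-type low-endoderm cells.

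**Figure D5:**
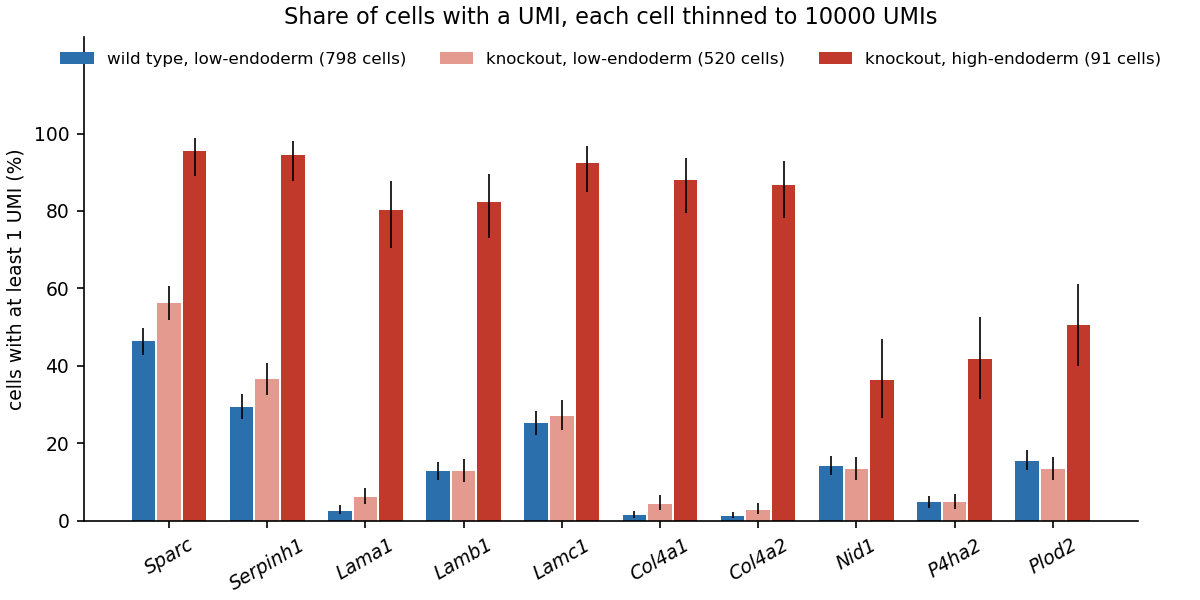
Share of cells (%) with at least 1 UMI of each member after thinning to 10000 UMIs, in wild-type low-endoderm (blue), knockout low-endoderm (light red) and knockout high-endoderm (dark red) cells, with Clopper-Pearson intervals. Sparc is at 46.4%, 56.3% and 95.6%, and Nid1 at 14.2%, 13.3% and 36.3%.

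Among high-endoderm knockout cells the members varied widely. A thinned cell held a median of 56 UMIs summed over the members, from 0 to 307, and a median of 8 of the 10 genes. In low-endoderm cells the median sum was 2 UMIs in both libraries, with highest values of 25 (knockout) and 26 (wild type). Sparc had a median of 18 thinned UMIs per high-endoderm cell and a highest value of 182, and Serpinh1 a median of 15 and a highest value of 56. Of the 91 thinned cells, 10 held all 10 genes. As a description over these 91 cells of 1 library at equal depth, the Pearson correlation of log2(thinned count + 1) was highest for Col4a1 with Col4a2 (0.80), Sparc with Serpinh1 (0.77) and Sparc with Col4a1 (0.76). It was lowest for Nid1 with P4ha2 (0.07). Over the 45 pairs the median was 0.44, and in 520 low-endoderm cells, where counts were sparse, it was 0.03.

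The genes most like the summed members over those 91 cells were Lrpap1, a chaperone of lipoprotein receptors (correlation 0.69), P4hb, the beta subunit of prolyl 4-hydroxylase (0.69), Tfpi, an inhibitor of coagulation (0.64), Calr, a chaperone of the endoplasmic reticulum (0.63), and Fabp3, a fatty acid binding protein (0.61). Over all 665 thinned knockout cells they were Foxq1 (0.80), Srgn (0.77), Lrpap1 (0.76), Ctsl (0.67) and Amot (0.67). In low-endoderm cells the highest was mt-Co1, at 0.30.

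Other basement membrane genes went both ways between the knockout classes. The members were chosen with their levels in these classes known, so no contrast with them is read. Of 24 listed, 8 were measured in the knockout classes, with a median of 0.85. By over 1.5-fold, 5 were higher and 2 lower in high- than in low-endoderm cells, beside 26.9% and 11.3% of all genes. Hspg2, which encodes perlecan, was at 235.7 and 37.0 CPM (log2 ratio 2.67), Nid2, which encodes nidogen-2, at 98.4 and 24.3 CPM (2.02), and Pxdn, a peroxidase that cross-links type IV collagen, at 17.7 and 4.27 CPM (2.06). Fn1, fibronectin, went the other way, with 41.2 CPM in high- and 176.8 CPM in low-endoderm cells (-2.09), as did Col18a1, the type XVIII collagen gene (20.4 and 79.3 CPM, -1.95). Between libraries in low-endoderm cells 7 were measured and 0 passed 1.5-fold, beside 4.57% of all genes higher and 2.84% lower. The largest differences there were Fbln1 (-0.58), Col18a1 (0.28) and Agrn (0.24).

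Genes of collagen folding and export were counted in the same way, beside the 26.9% of all genes higher and 11.3% lower in high-endoderm cells. Of 12 measured genes of collagen modification and folding, 9 were higher and 1, Pcolce (13.3 against 49.8 CPM, -1.88), lower by over 1.5-fold, with a median of 1.43. P4ha1, the other main prolyl 4-hydroxylase alpha subunit, was at 110.8 and 9.37 CPM (log2 ratio 3.56), Colgalt1, a collagen galactosyltransferase, at 276.0 and 39.6 CPM (2.80), and P3h1, a prolyl 3-hydroxylase, at 42.5 and 8.82 CPM (2.27). Of 14 measured genes of procollagen export 11 were higher and 0 lower, with Creb3l2, a membrane-bound transcription factor of the secretory pathway, at 47.9 and 1.65 CPM (4.83) and Sec24d, a coat protein of export vesicles, at 33.7 and 4.20 CPM. Of 16 chaperones of the endoplasmic reticulum 15 were higher, with a median of 1.38, Calr at 1452 and 390.6 CPM (1.89). Of 10 measured heat shock genes 4 were higher and 1 lower, with a median of 0.21. Bag3, a co-chaperone, had the largest difference of these (3.08). Creb3l1, Creb3l2, Sec23a, Sec24d, P4ha1, P3h1, Plod3, Hyou1, Bag3, Pxdn and Timp2 reached the 10 CPM minimum only through the high-endoderm cells, so they had to differ to be counted, and nothing is read from these counts.

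Between the libraries in low-endoderm cells the medians of these lists were 0.39 (collagen modification), 0.11 (export), 0.25 (chaperones of the endoplasmic reticulum) and -0.06 (heat shock genes), against 0.06 over all genes. Of the 11 measured collagen modification genes 1 was higher, Loxl2, a lysyl oxidase (68.2 against 25.3 CPM, log2 ratio 1.43), and 1 lower, P4ha1 (9.37 against 15.2 CPM, -0.70). Procollagen export had 0 of 10 past 1.5-fold, heat shock genes 0 of 9, and chaperones of the endoplasmic reticulum 1 of 15, Herpud1 (1.09). Of 10 matrix receptors 3 were higher in the knockout library and 0 lower, with a median of 0.32, beside 4.57% of all genes higher. They were Itga3 (19.4 against 8.24 CPM, 1.24) and Itgb1 (43.8 against 25.5 CPM, 0.78), chains of a laminin receptor, and Sdc1, a syndecan (22.9 against 14.1 CPM, 0.69). Between the knockout classes 4 of 10 measured receptors were higher and 1 lower in high-endoderm cells, beside 26.9% and 11.3% of all genes. Their median was -0.09 against 0.11 over all genes, with Itga5 the highest (1.77) and Bcam the lowest (-1.77). Of the matrix-degrading enzymes and inhibitors, Ctsl, a lysosomal protease, was at 1315 CPM in high- and 76.2 CPM in low-endoderm knockout cells, and Serpine2 was higher in knockout than in wild-type low-endoderm cells (0.80).

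For scale, the members were set beside the extremes of the low-endoderm comparison. Among the 2265 genes whose mean level reached 50 CPM, RP23-4H17.3 (2.13), Id1 (2.02), Hist1h2ap (1.87), Gm10076 (1.80) and Usp50 (1.70) had the highest log2 ratios, and Fos (-3.85), Actg1 (-2.14), Ldhb (-2.07), Actb (-1.97) and Lncenc1 (-1.96) the lowest. Sparc is the only member in that range of levels, and its 0.43 lay at percentile 89.5 of the 6440 genes.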

How the data were processed

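The deposited values are whole-number UMI counts per gene and cell, not normalised, in integer MatrixMarket files per the file headers. The submitters' processing notes name Cell Ranger 2.0.0, Seurat 3.1.1 and the mm10 build, with no role given; the annotation, the handling of strand and the rule for calling cells are not given in the sources used here. Of 27998 genes, 27722 (99.0%) matched GENCODE M21 (GRCm38) by identifier.

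The members, gene lists and comparisons were chosen with earlier results of these data known. Counts were summed over the cells of a class and scaled to CPM, and 0.5 counts were added to both sums before a log2 ratio. Only genes whose mean level in the compared classes reached 10 CPM entered counts over all genes; a gene was called higher or lower past 1.5-fold. Intervals are exact: Poisson for levels, conditional on the total for ratios, Clopper-Pearson for shares. Cells were thinned without replacement to 10000 UMIs for shares and correlations. For the chromosome 8 share, ribosomal protein genes, the members and genes above 500 CPM were left out, and autosomes made the total. Scrublet (scanpy 1.11.5) called 1 knockout and 5 wild-type low-endoderm cells and 1 knockout high-endoderm cell doublets; they were kept, as the class rule does not remove them. TMM factors came from edgeR 4.0.16. Scripts ran in Python 3.11.15 and were tested on simulated counts.

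Named genes, besides the members, are the 5 highest and 5 lowest ratios in low-endoderm cells among genes of at least 50 CPM, the 5 genes of highest correlation with the summed members among those with at least 0.1 mean thinned UMIs, and up to 3 genes of each list with the largest ratio; Nid2, Srgn, Pou5f1, Tbx3, Klf5, Pcolce, the markers given with UMIs only and the genes most like the members within high-endoderm cells were chosen after their values were seen. No protein sequence is given, as no protein table was used here.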

Additional observations from a re-analysis of the deposited data

How the results depend on the processing

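No paired analysis was possible because there is 1 library for each genotype. A value counted as moved when an alternative took it outside its counting interval, and the cause of each move was not tested. The alternatives were planned except the one on Srgn, which was chosen after seeing the data. The count of members higher by over 1.5-fold in low-endoderm cells stayed between 2 and 4 under 15 alternatives, and in high- over low-endoderm knockout cells it was 10 under all 17. With cells under 1% mitochondrial counts kept, the median of the members in low-endoderm cells changed sign, to -0.056, Sparc moved to 0.27 and Serpinh1 to -0.19. With no limit on fibroblast genes Sparc was 0.72, Serpinh1 0.15 and Col4a2 1.80. In cells with the usual chromosome 8 share the median was 0.48, Sparc 0.61, and the median of high over low knockout cells 5.03. Col4a1 stayed between 1.36 and 1.73 in low-endoderm cells. Depth limits Col4a1, Col4a2, Lama1 and P4ha2, with 35 to 121 UMIs in each low-endoderm class.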

Other observations

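Cells outside the class rule carried the members too. The 227 knockout cells with under 1% mitochondrial counts and at most 1 endoderm UMI, which were shallow (median 8552 UMIs), held Lamc1 at 2.37 CPM (6 UMIs) and Nid1 at 1.58 CPM (4 UMIs), against 34.1 and 14.3 CPM in the low-endoderm cells of the rule. They held Sparc at 41.1 and Serpinh1 at 19.7 CPM, against 99.9 and 46.0 CPM, and P4ha2, in contrast, at 4.34 CPM, close to its 4.83. The 16 such wild-type cells went the other way for some members, with Sparc at 181.8 and Serpinh1 at 136.3 CPM. Wild-type low-endoderm cells held these at 74.3 and 46.9 CPM. Plod2 was at 42.0 against 16.4 CPM in these wild-type cells, and at 3.16 against 15.0 CPM in the knockout. Lamc1 (0 UMIs against 29.2 CPM) and Nid1 (1 UMI, 3.50 against 13.7 CPM) were lower in the wild-type cells too. In cells over 10% mitochondrial counts both libraries had higher levels of Sparc, Serpinh1, Lamb1, Lamc1, Nid1 and Plod2. Lama1, Col4a1, Col4a2 and P4ha2 had at most 5 UMIs each there, too few to read. Sparc was at 275.2 CPM in 62 such knockout and 202.3 CPM in 33 such wild-type cells with at most 1 endoderm UMI, and Serpinh1 at 109.7 and 122.2 CPM. Lamb1 was at 61.8 and 61.1 CPM there, and Lamc1 at 101.7 and 87.8 CPM.

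In knockout cells with under 1% mitochondrial counts and at least 10 endoderm UMIs (6 cells) Sparc was at 2646 CPM and Serpinh1 at 1744 CPM. The 11 knockout cells rich in fibroblast genes held Col4a2 at 290.4 CPM and Nid1 at 181.5 CPM, but Lama1 at 2.27 CPM (1 UMI). In knockout high-endoderm cells the order was the reverse, with Lama1 at 407.2 CPM and Nid1 at 35.4 CPM.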
